A study of Rattus norvegicus with 44 samples.

Results

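The 6 genes followed here rat by rat, chosen as markers of granule neurons of the dentate gyrus (DG), are Prox1, C1ql2, Dsp, Calb1, Plk5 and Tdo2. They are 6 of the 18347 gene identifiers in the table of the series, they were taken by gene symbol, and each of them had a single row there. RNA of the dissected DG was sequenced from 44 male F344 (Fischer 344) rats, with 1 library per rat. The young rats (YNG, n = 10) were 6 months old. The older rats, labelled as 12 months old, which is the age at which their treatment began, received vehicle (AV, n = 12), ABT-263 (AA, n = 11) or dasatinib plus quercetin (ADQ, n = 11) by oral gavage in repeated cycles of several days over months, and a last round preceded tissue collection. The vehicle was a mixture of Phosal 50 PG, PEG400 and ethanol. ABT-263 inhibits anti-apoptotic proteins of the BCL2 family, dasatinib inhibits tyrosine kinases and quercetin is a plant flavonoid, and both treatments are used as senolytics, agents meant to remove senescent cells. The labels name no treatment of an older rat, so each older rat's group is the one that a deposited list of rat attributes gives under its name. That list names the group of the young rats as young with vehicle, and the study's methods describe no dosing of them. All rats were males of a single strain, and each library is the bulk RNA of a dissected region. The median estimated depth was 16702456 reads in YNG, 15135395 in AV, 17820775 in ADQ and 15727492 in AA.

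Granule neurons are the principal cells of the DG. They receive the input of the entorhinal cortex and send mossy fibers to the CA3 field, and new ones are added throughout life. Prox1 is a homeobox transcription factor that specifies and maintains granule cell fate. C1ql2 is a secreted protein with a C1q domain that acts at mossy fiber synapses, Dsp (desmoplakin) ties desmosomes to intermediate filaments, and Calb1 (calbindin) binds calcium in mature granule cells. Plk5 is a brain-expressed member of the polo-like kinase family, and Tdo2 is the tryptophan dioxygenase that opens the kynurenine pathway. In bulk RNA, fewer granule cells and less RNA per granule cell cannot be told apart.

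RefSeq promoter windows (250 bases before to 50 after the start site, GRCr8 build) were at hand for 3 of the 6 genes. They are shown to set the promoter of Tdo2, which was at or near 0 in these libraries, beside those of C1ql2 and Dsp, whose lowest values in any rat were 1266 and 266. The windows are chr13:34023652-34023951 on the plus strand for C1ql2, chr17:26877072-26877371 on the minus strand for Dsp and chr2:169585537-169585836 on the minus strand for Tdo2. Capitals mark an E-box (CANNTG, either strand), the motif bound by basic helix-loop-helix factors.
C1ql2: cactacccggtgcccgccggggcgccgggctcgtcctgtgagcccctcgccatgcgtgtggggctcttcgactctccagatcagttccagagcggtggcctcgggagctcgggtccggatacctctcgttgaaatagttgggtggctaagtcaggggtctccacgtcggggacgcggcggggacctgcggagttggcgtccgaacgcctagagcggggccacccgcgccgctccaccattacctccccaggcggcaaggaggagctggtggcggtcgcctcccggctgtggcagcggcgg
Dsp: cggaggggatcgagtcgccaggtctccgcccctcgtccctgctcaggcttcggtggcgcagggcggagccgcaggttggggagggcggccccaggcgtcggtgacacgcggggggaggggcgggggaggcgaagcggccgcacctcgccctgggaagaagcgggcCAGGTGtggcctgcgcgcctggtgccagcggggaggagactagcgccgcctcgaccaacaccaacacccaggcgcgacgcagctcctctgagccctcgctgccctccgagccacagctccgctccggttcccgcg
Tdo2: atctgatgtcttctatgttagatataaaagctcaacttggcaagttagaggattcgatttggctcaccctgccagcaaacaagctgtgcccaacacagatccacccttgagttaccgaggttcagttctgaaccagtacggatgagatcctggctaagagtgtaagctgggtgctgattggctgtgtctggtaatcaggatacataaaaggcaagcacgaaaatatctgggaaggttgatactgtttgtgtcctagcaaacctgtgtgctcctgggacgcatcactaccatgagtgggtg
The C1ql2 and Dsp windows were rich in G and C (70.3% and 75.0%) and held 33 and 35 CpG dinucleotides, while the Tdo2 window had 47.0% and 5. Over all 33469 promoter windows the medians were 51.7% and 7. The single E-box of the 3 windows was CAGGTG, 85 bases before the start site of Dsp, and 72.1% of all windows hold at least 1 such motif. The Dsp window also had 4 GC boxes (GGGCGG, either strand), which 33.1% of windows hold. The Tdo2 window had a TATAAA 228 bases before its start site, which 14.2% of windows hold. None of the 3 windows held the core TGACG of the cAMP response element, which occurs in 21.2% of all windows, or the full element (TGACGTCA, 1.83%), which contains it. Nor did they hold the AP-1 motif TGANTCA (7.33%) or the NeuroD form of the E-box, written CAGATG (16.6%). A match of letters is a description and not a binding site.

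The values are reads per gene divided by the authors by a size factor of each library (median ratio), and they are given here as normalized values. Their totals still differed between libraries, from 14297964 in the ADQ rat 4007 to 20579982 in the YNG rat V9. Since longer transcripts collect more reads, levels were compared between rats. Where the most abundant gene of a list is named, that is the gene of largest normalized value, with no correction for length. Prox1 had a mean of 2515 over the 44 rats, C1ql2 of 5952, Dsp of 896.1, Calb1 of 770.7 and Plk5 of 1132, while Tdo2 had a mean of 0.6607. The first 5 passed the filter (a mean of at least 5) and were among the 15598 genes tested, and Tdo2 was not tested.

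The libraries of 4 rats, picked for low granule cell genes after the data were seen, stood apart. The AA rat 4107 had the lowest Prox1 (608.7), C1ql2 (1266), Dsp (266.0) and Plk5 (234.3) of all 44 rats, which are 0.23, 0.22, 0.30 and 0.19 of the medians. Its Calb1 was 528.8, or 0.71 of the median, and 7 other rats were lower. In the same rat the summed value of the CA1 pyramidal markers was 45760, the highest of the 44 rats and 5.01 times the median, and the oligodendrocyte markers stood at 2.12 times their median. The AV rat 3989 had the next lowest Prox1 (972.5) and Plk5 (315.1), its CA1 sum was 3.27 times the median, and its astrocyte, oligodendrocyte, microglia and endothelium sums were the highest of all rats. The AA rat 3996 had the lowest Calb1 (387.5), a C1ql2 of 2400 and a CA1 sum of 2.23 times the median. The AV rat 4571 had the third lowest Prox1 (1533) and the lowest Dsp but for rat 4107 (572.7), with a CA1 sum of 2.44 times and oligodendrocyte markers at 2.34 times their medians. The AV rat 3890, with a CA1 sum of 2.91 times the median, was mixed: its Prox1 (2653), Calb1 (764.8) and Dsp (1070) were above their medians, while its C1ql2 (5132) and Plk5 (682.4) were at 0.87 and 0.56 of theirs. Whether the dissection differed was not tested. These 4 are the lowest rats in Prox1 and all are older, so leaving them out raises the older values of these genes by construction. The alternative used here instead left out the 7 rats of any group whose CA1 sum was over 2 times the median (1 YNG, 3 AV and 3 AA rats). Its rule uses no granule cell gene, but it was chosen after the data were seen, it takes in the same 4 rats and all but 1 of its rats are older. Its values are given as a description.

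**Figure D1:**
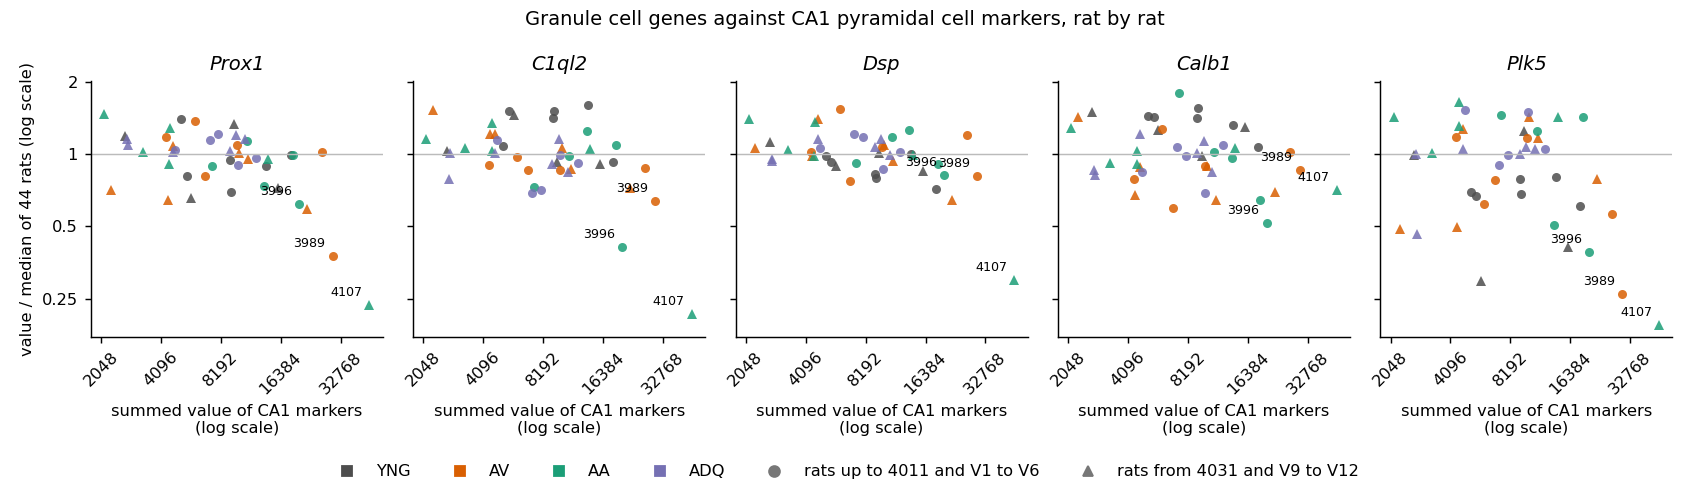
Value of each granule cell gene divided by its median over the 44 rats (vertical, log scale) against the summed normalized value of the CA1 pyramidal cell markers (horizontal, log scale), 1 point per rat, colored by group and shaped by rat-number series. The AA rat 4107 sits at the far right of every panel and at the bottom for Prox1, C1ql2, Dsp and Plk5, where its ratios were 0.23, 0.22, 0.30 and 0.19, while its Calb1 ratio was 0.71.

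The rat numbers also fell into 2 series with a gap, the rats up to 4011 with V1 to V6 (n = 22) and the rats from 4031 with V9 to V12 (n = 22), and all 4 groups were present in both. The numbers have further gaps: all AV rats of the second series lie between 4566 and 4572, and its AA and ADQ rats between 4031 and 4110. Within that series AV and its block of numbers cannot be told apart. The labels name no batch, but the share of reads at the unnamed locus AABR07000398.1 was 0.4225% to 1.596% in the first series and 1.711% to 11.13% in the second. The comparisons with YNG were therefore repeated within each series.

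Calb1 was the granule cell gene with the clearest difference between young and older rats. It ran from 734.6 to 1171 in YNG (median 1022), from 444.7 to 1068 in AV (median 649.5), from 387.5 to 1351 in AA (median 718.8) and from 514.7 to 907.9 in ADQ (median 738.2). Of the 34 older rats, 20 lay below the lowest YNG rat and 32 below the YNG median, and only the AA rat 3988, at 1351, lay above the highest YNG rat. The group means ± SD were 993 ± 138.2 in YNG, 738.2 ± 258.7 in AA, 718.3 ± 120 in ADQ and 663.3 ± 188.9 in AV, and the neighbors among the 3 older groups in this order were not apart beyond their spread.

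Differences were tested with limma on log2(value + 1), with the 4 groups in a single fit. A gene is called here at the study's unadjusted p of 0.05, and the adjusted p is Benjamini-Hochberg over all genes tested. Calb1 was lower in AV than in YNG by a log2 difference of -0.62 ± 0.15 (SE, p = 0.000111, adjusted p = 0.0133), the 131st smallest p of all genes. It was lower by -0.49 ± 0.15 in AA (p = 0.00195, adjusted p = 0.0502) and by -0.47 ± 0.15 in ADQ (p = 0.0027, adjusted p = 0.0445). The 3 comparisons share the YNG rats. With the 3 older groups averaged the log2 difference was -0.53 ± 0.12 (p = 9.12e-05, adjusted p = 0.00729), and a permutation test of the rats gave p = 0.00026.

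Calb1 was lower in older rats within both series, by a log2 difference of -0.60 ± 0.18 among the rats up to 4011 and of -0.43 ± 0.16 among the rats from 4031 (p = 0.00302 and 0.0145, adjusted p = 0.0192 and 0.455). The difference between the series was not past the threshold (interaction p = 0.522). Of the single groups among the rats from 4031, AV was called (-0.57, p = 0.00618) while AA and ADQ were not (-0.36 each, p = 0.0715 and 0.071). The difference of older rats from YNG without the 7 rats of high CA1 sum was -0.48 ± 0.11 (p = 0.000139). In the comparison of AA with YNG, the AA rat 3988 and the AA rat 3996 pulled in opposite directions: the log2 difference was -0.58 (adjusted p = 0.0424) without the former and -0.40 (adjusted p = 0.0904) without the latter. Rat 3988 also had the highest summed interneuron markers (1.59 times the median) and thalamus markers (1.77 times), and calbindin is made by some neurons of those kinds as well. The part of those cells in its Calb1 value was not tested.

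C1ql2 was also lower in the older rats, with more overlap between groups. Values ran from 5360 to 9429 in YNG (median 7355), from 3747 to 8975 in AV (median 5223), from 1266 to 7905 in AA (median 6185) and from 4047 to 6774 in ADQ (median 5421). Of the older rats, 14 of 34 lay below the lowest YNG rat, 32 lay below the YNG median and none lay above the highest YNG rat. The means ± SD were 7275 ± 1671 in YNG, 5738 ± 1434 in AV, 5429 ± 926 in ADQ and 5507 ± 2045 in AA, and the neighboring older groups were not apart beyond their spread.

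The log2 difference of C1ql2 from YNG was -0.52 ± 0.20 in AA (p = 0.0133, adjusted p = 0.0982) and -0.41 ± 0.20 in ADQ (p = 0.0499, adjusted p = 0.178). In AV it was -0.35 ± 0.20 and not called (p = 0.0873, adjusted p = 0.304), although a permutation test per gene gave p = 0.0307. The same test gave p = 0.05002 in AA, not past the threshold, and p = 0.00672 in ADQ. With the older groups averaged it was -0.42 ± 0.17 (p = 0.0142, adjusted p = 0.0708). Rats 4107, 3996 and 3989 are the 3 lowest of all 44 in C1ql2. With the 7 rats of high CA1 sum left out, these 3 among them, the difference was -0.23 ± 0.13 in AA (p = 0.0904), -0.27 ± 0.13 in AV (p = 0.0462) and -0.32 ± 0.11 over all older rats (p = 0.00475). The ADQ call lay at the threshold and was lost in 28 of 44 fits that each left out 1 rat, but with ADQ and YNG alone in the fit, where the spread of the AA rats does not enter, p was 0.00263.

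C1ql2 was called lower in the first series of rats and not in the second. Among the rats up to 4011 the mean was 7886 ± 1597 in YNG and 5150 ± 1223 in the older rats, a log2 difference of -0.63 ± 0.17 (p = 0.0012). Among the rats from 4031 it was 6358 ± 1503 in YNG and 5931 ± 1646 in the older rats, a log2 difference of -0.16 ± 0.29 (p = 0.587). The difference between the series was itself not past the threshold (p = 0.175).

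Prox1, the gene that defines granule cell identity, was not called different between young and older rats. It ran from 1704 to 3630 in YNG (median 2383), from 972.5 to 3553 in AV (median 2547), from 608.7 to 3811 in AA (median 2480) and from 2344 to 3138 in ADQ (median 2842). The groups overlapped almost fully, and 11 of 34 older rats lay below the YNG median. The means ± SD were 2811 ± 254.9 in ADQ, 2500 ± 685.4 in YNG, 2418 ± 858.1 in AA and 2345 ± 735.5 in AV, so that ADQ had the highest mean and the narrowest spread. The log2 difference of older rats from YNG was -0.01 ± 0.17 (p = 0.943), with a 95% interval from -0.35 to 0.32. These rats do not tell apart differences within that interval.

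Dsp was not called different between older and young rats with all rats in the fit. It ran from 637 to 1000.0 in YNG (median 808.7), from 572.7 to 1367 in AV (median 920.3), from 266 to 1242 in AA (median 883.5) and from 771.1 to 1073 in ADQ (median 943). Above the highest YNG rat lay 11 of 34 older rats, and 7 lay below the YNG median. The means ± SD were 936.6 ± 99.17 in ADQ, 926.1 ± 225.3 in AV, 900.8 ± 270.1 in AA and 810.3 ± 107 in YNG. The log2 difference of older rats from YNG was 0.15 ± 0.13 (p = 0.251) with all rats and 0.21 ± 0.09 (p = 0.0283, adjusted p = 0.108) without the AA rat 4107, the lowest of all rats in Dsp. Without the 7 rats of high CA1 sum it was 0.22 ± 0.08 (p = 0.0101, adjusted p = 0.0587). The 3 lowest rats in Dsp, 4107, 4571 and the YNG rat V6, are among these 7, so neither value is read as a difference. In ADQ it was 0.21 ± 0.16 (p = 0.182) in the fit of all groups, and p was 0.012 with ADQ and YNG alone in the fit and 0.0117 by permutation.

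Plk5 had the widest spread of the 5 tested genes, with a coefficient of variation of 41.8% over the 44 rats against 21.5% for Dsp. It ran from 358.5 to 1515 in YNG (median 837.6), from 315.1 to 1728 in AV (median 948.3), from 234.3 to 2009 in AA (median 1597) and from 564.5 to 1852 in ADQ (median 1272). Above the highest YNG rat lay 10 of 34 older rats, 6 of them AA rats, while 9 older rats lay below the YNG median. The means ± SD were 1331 ± 608.7 in AA, 1280 ± 342.8 in ADQ, 1031 ± 457.7 in AV and 873 ± 328.7 in YNG. The log2 difference from YNG was 0.60 ± 0.30 in ADQ (p = 0.0526), 0.47 ± 0.30 in AA (p = 0.124) and 0.19 ± 0.29 in AV (p = 0.531). The ADQ value lay at the threshold: with ADQ and YNG alone in the fit p was 0.00716 (adjusted p = 0.0551), a permutation test gave p = 0.0154, and 10 of 17 other settings and 6 of 44 fits that each left out 1 rat called it. Among the rats from 4031 alone it was 0.54 ± 0.49 (p = 0.286). Over all older rats it was 0.42 ± 0.25 (p = 0.098) with every library and 0.49 ± 0.22 (p = 0.027, adjusted p = 0.104) without the AA rat 4107, the lowest of all rats in Plk5. Without the 7 rats of high CA1 sum it was 0.60 ± 0.20 (p = 0.00486, adjusted p = 0.0406). Since the lowest rats in Plk5, 4107 and 3989, are among these 7, neither value is read as a difference.

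Tdo2 was listed at 0 in 28 of the 44 rats, namely in 8 of 10 YNG, 9 of 12 AV, 5 of 11 AA and 6 of 11 ADQ rats. The other 16 rats had from 1 to 8 reads. The highest values were 6.146 in the ADQ rat 4006 (8 reads) and 5.823 in the AA rat 3985 (7 reads), and no YNG or AV rat had more than 1 read. At this depth Tdo2 lay near the limit of a single read in most libraries, and no difference between groups was tested. It thus did not serve as a granule cell marker in these libraries.

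**Figure D2:**
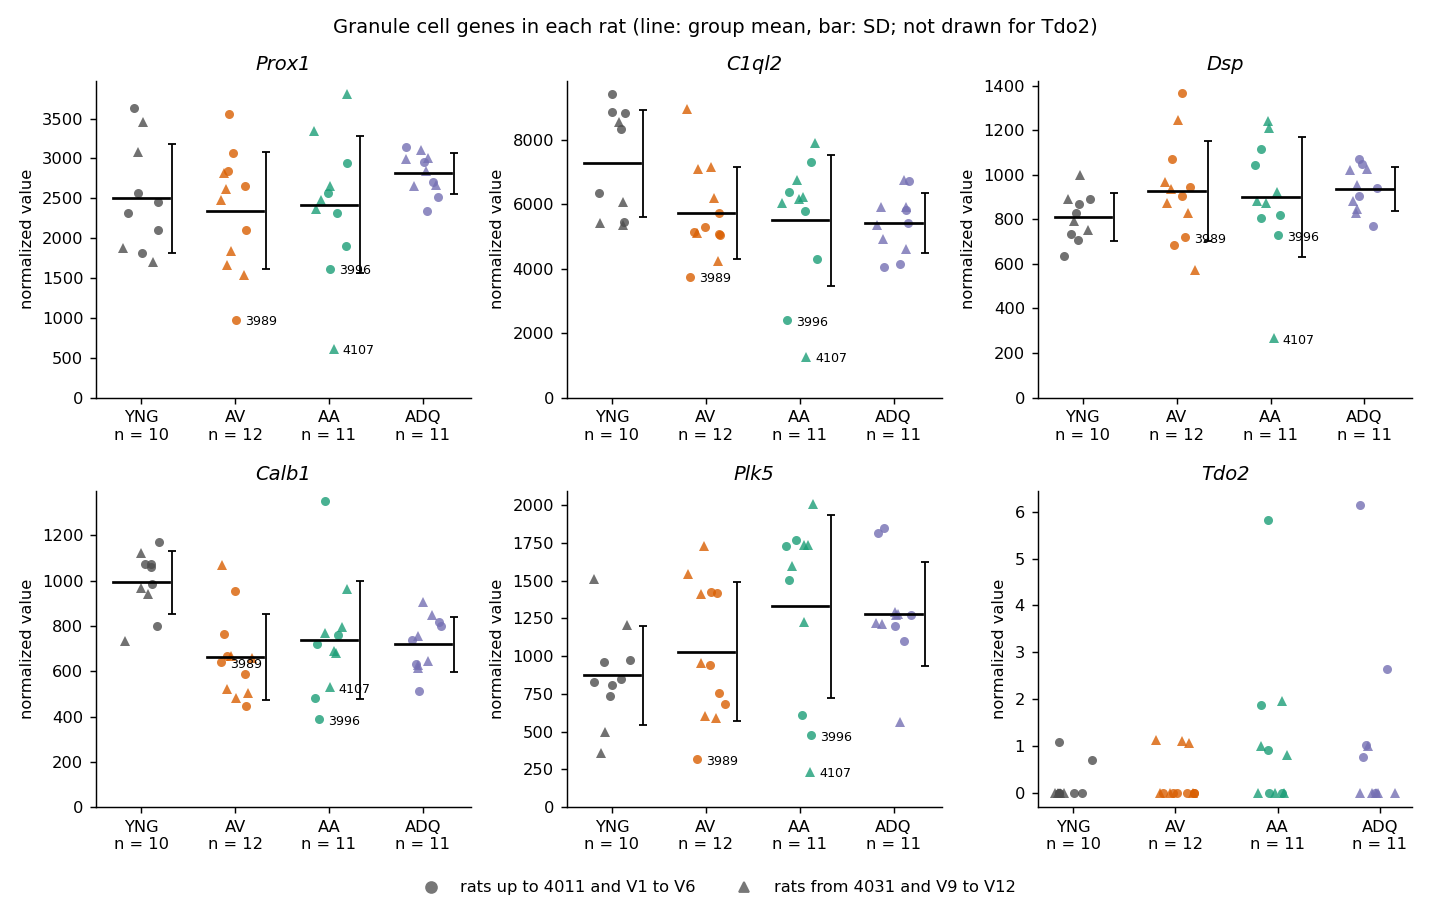
Normalized value (vertical) of the 6 granule cell genes in each rat by group (horizontal), with circles for the rats up to 4011 and V1 to V6 and triangles for the rats from 4031 and V9 to V12, and with the group mean (line) and SD (bar) for all but Tdo2. Most older rats lay below the YNG rats for Calb1 (20 of 34 below the lowest YNG rat), the groups overlapped for Prox1, and the AA rat 4107 lay at the bottom of 4 panels.

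In number, 1 of the 5 tested granule cell genes was called in AV against YNG, where 21.3% of all genes tested were called, and 2 of 5 in AA against YNG, where 26.6% were. In ADQ against YNG 2 of 5 were called, against 28.1% of all genes. For the 3 older groups averaged 2 of 5 were called, both lower, against 32.4% of all genes (15.7% higher and 16.7% lower). After adjustment Calb1 was called in AV, in ADQ and over all older rats, where 2.35%, 7.08% and 14.9% of all genes were, and no granule cell gene was in AA, where 3.85% were. Counts of 1 or 2 genes in 5 are thus near the share of all genes at the unadjusted threshold. Without the 7 rats of high CA1 sum the count over all older rats was 4 of 5, against 34.3% of all genes, but the rats left out include the lowest in these genes and nothing is read from that count.

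**Figure D3:**
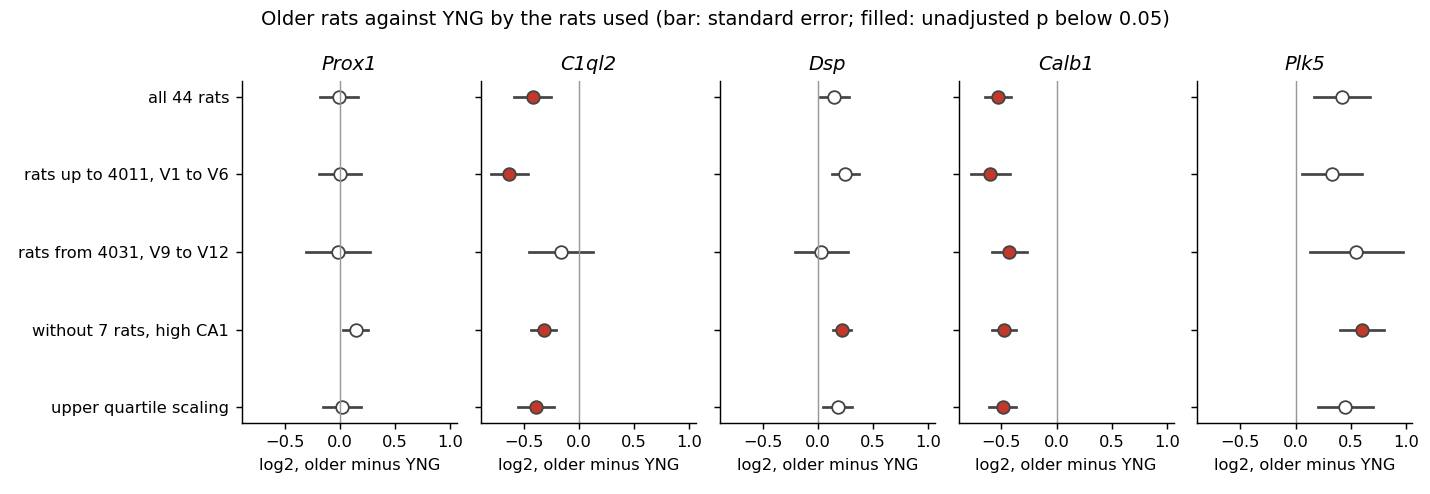
Log2 difference of older rats from YNG (horizontal) for the 5 tested genes, with its standard error (bar), for all rats, for each rat-number series alone, without the 7 rats of high CA1 sum and after another scaling (rows), with filled points for an unadjusted p below 0.05. Calb1 lay between -0.60 and -0.43 in every row, C1ql2 was -0.16 for the rats from 4031 alone, and Dsp and Plk5 were filled only in the row that leaves out 7 rats, which include the lowest in both genes.

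The level of Prox1 also serves as a scale for the other genes within a library. Relative to Prox1 in the same rat, Calb1 was lower in the older rats by a log2 ratio of -0.51 (mean -1.81 ± 0.53 SD in 34 older and -1.30 ± 0.49 in 10 YNG rats, permutation p = 0.0088). C1ql2 relative to Prox1 was lower by -0.41 (permutation p = 0.027), and Plk5 relative to Prox1 was higher by 0.43 (permutation p = 0.02). Dsp relative to Prox1 was higher by 0.17, which was not past the threshold (permutation p = 0.14). Of these 4 ratios, chosen after the data were seen, 3 passed p of 0.05. Since Prox1 itself differed by only -0.01, these ratios differ little from each gene's own difference, and older and young rats overlapped in them.

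Between the older groups none of the 5 genes was called. This held for AA against AV, where 4.51% of all genes tested were called, for ADQ against AV, where 9.32% were, and for AA against ADQ, where 4.53% were. The smallest unadjusted p was that of Prox1 in ADQ against AV, with a log2 difference of 0.33 ± 0.19 (p = 0.0911, adjusted p = 0.629), where a permutation test gave p = 0.0418 and the fit of ADQ and AV alone p = 0.0347. Without the AV rat 3989 this difference was 0.23 (p = 0.224). Prox1 in AA against ADQ differed by -0.33 ± 0.20 (p = 0.0978).

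Calb1 differed by 0.13 ± 0.14 between AA and AV and by 0.14 ± 0.14 between ADQ and AV on the log2 scale, with 95% intervals from -0.16 to 0.41 and from -0.14 to 0.43. In the fit of all rats a difference as large as that between AV and YNG, in the opposite direction, thus lay outside both intervals. Without the 7 rats of high CA1 sum Calb1 differed between AA and AV by 0.35 ± 0.14 (p = 0.0207, adjusted p = 1), and for that fit no such statement is made. C1ql2 differed by -0.17 ± 0.19 in AA and by -0.06 ± 0.19 in ADQ, and the former was 0.02 without the AA rat 4107. Plk5 differed by 0.28 ± 0.29 in AA and by 0.41 ± 0.29 in ADQ. Dsp differed by -0.09 ± 0.15 in AA and by 0.05 ± 0.15 in ADQ. The AA and ADQ comparisons share the AV rats.

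**Figure D4:**
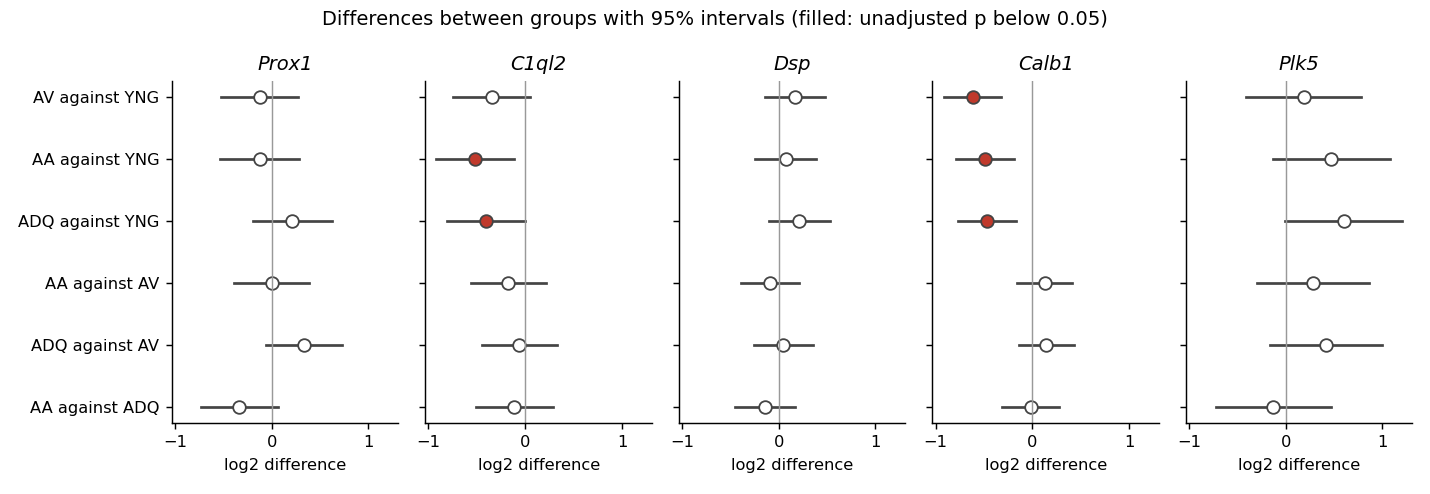
Log2 difference with its 95% interval (horizontal) for the 5 tested granule cell genes in 6 comparisons between groups (rows), with filled points for an unadjusted p below 0.05. Calb1 was filled in all 3 comparisons with YNG and C1ql2 in AA and ADQ against YNG, and no point was filled between older groups.

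Among rats of the same group the granule cell genes varied together to different degrees. After the group means were removed, Prox1 and Dsp had a Pearson r of 0.80 and a Spearman rho of 0.66 over the 44 rats (permutation p = 1e-05 for both, the smallest that 100000 resamples can give, adjusted p = 5e-05 and 0.0001 over 10 pairs). Without the 2 rats farthest from the median of Prox1, 4107 and 3989, r was 0.63, and within the series it was 0.59 for the rats up to 4011 and 0.91 for the rats from 4031. Prox1 and Plk5 had an r of 0.75 and a rho of 0.62 (permutation p = 1e-05 and 2e-05), and r was 0.54 without the same 2 rats. With the 7 rats of high CA1 sum left out, r was 0.57 for Prox1 and Dsp and 0.51 for Prox1 and Plk5 (permutation, adjusted p = 0.0025 and 0.0068).

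Dsp and Calb1 had an r of 0.47 and a rho of 0.55 (permutation p = 0.0023 and 0.00012, adjusted p = 0.0039 and 0.0004), and r was 0.48 without rats 4107 and 4571 and 0.34 without the 7 rats of high CA1 sum (permutation, adjusted p = 0.0952). The relations of C1ql2 were less even. Its r with Prox1 was 0.50 but its rho was 0.12 (permutation p = 0.0027 and 0.43), and without rats 4107 and 3989 its r was 0.00. Its r with Dsp was 0.67 and its rho 0.39 (permutation p = 0.00012 and 0.0098, adjusted p = 0.0004 and 0.024), and without rats 4107 and 3996 its r fell to 0.26. Likewise its r with Plk5, 0.50, was 0.02 without these 2 rats, and its r with Calb1, 0.38, was 0.14. By rank these relations did not pass (rho 0.30 and 0.27, permutation, adjusted p = 0.081 and 0.11). Among the rats up to 4011, where rat 4107 is absent, its r with Plk5 was 0.49 and its r with Dsp 0.39. Its r without the 7 rats of high CA1 sum was 0.06 with Dsp, 0.11 with Calb1, -0.22 with Plk5 and -0.39 with Prox1, none past the threshold (permutation, adjusted p = 0.787, 0.787, 0.391 and 0.0572). Without only the 4 rats that stood apart, r with Prox1 was also -0.39 and passed with its sign reversed (permutation, adjusted p = 0.0285). Rats that are low in both genes of a pair are among those left out, which lowers r by construction.

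Of the remaining pairs, Dsp and Plk5 had an r of 0.50 and a rho of 0.31 (permutation, adjusted p = 0.003 and 0.081). Their r was 0.23 without rats 4107 and 4571, and 0.05 among the rats up to 4011 against 0.73 among the rats from 4031. Prox1 and Calb1 had an r of 0.28 and Calb1 and Plk5 an r of 0.17, both not past the threshold (permutation p = 0.07 and 0.26). Of the 10 pairs, 8 thus passed by Pearson r and 4 by rho. All values come from the same libraries and share their depth and scaling.

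**Figure D5:**
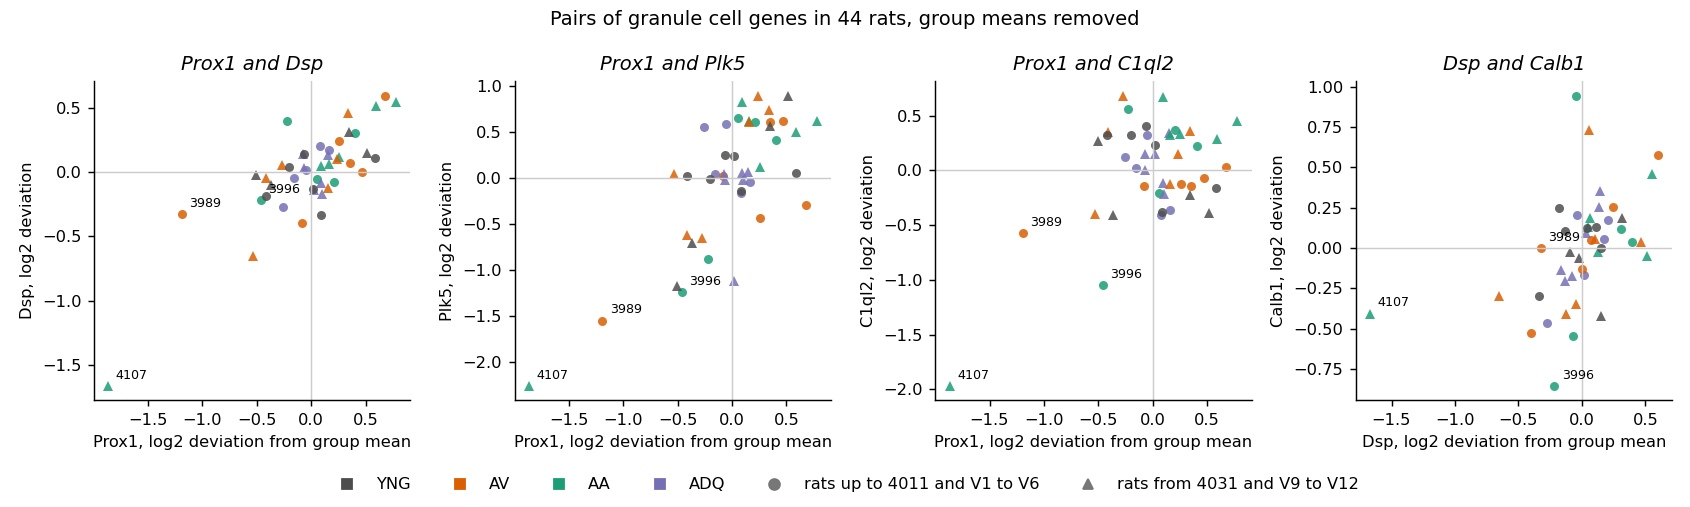
Deviation of 2 granule cell genes from their group means on the log2 scale (horizontal and vertical) in 44 rats, colored by group and shaped by rat-number series. Prox1 and Dsp (r = 0.80) and Prox1 and Plk5 (r = 0.75) rose together through the main cloud of rats, whereas for Prox1 and C1ql2 (r = 0.50) r was 0.00 without the AA rat 4107 and the AV rat 3989.

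The genes most like each granule cell gene across the 44 rats, among 13704 genes with a mean of at least 20, were mostly different ones from member to member, with Sema5a under both Prox1 and Dsp. Prox1 was most like Piezo2 (r = 0.93), a mechanically gated channel, Sema5a (0.92), a semaphorin that guides axons, and Tanc1 (0.91), a postsynaptic scaffold protein. Dsp was most like Kitlg (0.92), the ligand of the receptor Kit, the unnamed locus AABR07068161.1 (0.90) and Sema5a (0.86). C1ql2 was most like Nhlh1 (0.94), a neuronal helix-loop-helix factor, Fam163b (0.92) and Smpd2 (0.92), a neutral sphingomyelinase. Plk5 was most like Serinc2 (0.95), Fhl1 (0.92) and Dph1 (0.91). Calb1 had lower values, with Btg1 (0.71), an antiproliferative gene, Lrrc3b (0.70) and Rab27a (0.69), a small GTPase of vesicle transport. Without the AA rat 4107 these 15 values lay between 0.68 and 0.93. They are given as a description, over the same libraries.

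Other genes enriched in granule neurons, a list of 40 of which 37 were tested, leaned toward lower values in the older rats. Against YNG 13 of 37 were lower and 0 were higher (background 16.7% lower and 15.7% higher), and their median log2 difference was -0.12 where that of all genes was 0.00. With the rats of high CA1 sum left out, 13 were lower and 2 higher, where 34.3% of all genes were called, higher or lower. With array weights 15 were lower and 5 higher, with a median log2 difference of -0.05, where 28.1% of all genes were lower. Among the rats up to 4011 alone 12 were lower (20.4% of all genes were), and among the rats from 4031 alone 1 was (3.38% of all genes were). The clearest was Zbtb20, a zinc finger transcription factor with a role in hippocampal development. It stood at 1549 ± 673.7 in YNG, 904.9 ± 366.7 in AV, 957 ± 228.1 in ADQ and 859.5 ± 274.9 in AA (log2 difference of older rats -0.71 ± 0.16, adjusted p = 0.00684). Slc29a4, a monoamine transporter, was lower by -0.46 ± 0.12 (adjusted p = 0.0115) and Sipa1l2, a GTPase activator at synapses, by -0.30 ± 0.09 (adjusted p = 0.0219). Ntf3, the neurotrophin NT-3, was lower by -0.38 ± 0.12 (adjusted p = 0.0336) and Ahcyl2 by -0.30 ± 0.10 (adjusted p = 0.0365).

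None of the 37 was called in AA against AV, where 4.51% of all genes were, or in ADQ against AV, where 9.32% were. At these shares a count of 0 in 37 is not read as a result about granule cell genes. The smallest p in AA against AV were those of Neurod2, a neuronal differentiation factor (log2 0.29 ± 0.19, p = 0.143), and Spata13 (-0.14 ± 0.09, p = 0.148). In ADQ against AV they were those of Slit1, an axon guidance ligand (0.24 ± 0.13, p = 0.0752), and Synpr, a synaptic vesicle protein (0.15 ± 0.10, p = 0.114). The summed value of the list was 142500 ± 20840 in YNG, 121300 ± 22310 in AV, 123600 ± 15710 in ADQ and 119800 ± 21730 in AA, and its most abundant gene was Nrgn (neurogranin).

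The families and pathways of the members were set beside them. Of 13 C1q-like and cerebellin genes and their receptors, C1ql2 included, 6 were lower and 1 higher in the older rats (background 16.7% and 15.7%), with a median log2 difference of -0.21. Among the rats from 4031 alone 1 was lower and 0 were higher, and in a fit of both series 1256 of 15598 genes were called among those rats. C1ql3, its paralog that is also made by granule cells, was lower by -0.77 (adjusted p = 0.00231), and C1ql1 by -0.53 (adjusted p = 0.00605). Adgrb3, a receptor of C1q-like proteins, was at 1125 in YNG and from 1122 to 1213 in the older groups (p = 0.419), while Grik2, a kainate receptor subunit, was higher by 0.27 (adjusted p = 0.144). The calcium-binding relatives of Calb1 include Calb2 (calretinin), with means of 97.04 in YNG, 90.61 in AV, 105.9 in ADQ and 200.2 in AA, where the AA rat 3988 alone had 1082. Pvalb (parvalbumin) had means of 424.8 in YNG, 363.0 in AV, 291.2 in ADQ (p = 0.0396 against YNG, adjusted p = 0.156) and 436.3 in AA.

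Of 17 transcription factors of granule neuron development, Prox1 included, 5 were lower and 1 higher in the older rats (background 16.7% and 15.7%), and the median log2 difference was -0.03. With the rats of high CA1 sum left out, 5 were lower and 3 higher, where 34.3% of all genes were called, higher or lower. Among the rats from 4031 alone 0 of 17 were called. In a fit of both series 1256 of 15598 genes were called among those rats, so this 0 is near the background. Lower were Zbtb20, Nfia (-0.67, adjusted p = 0.0054), Klf9 (-0.43), Nfib (-0.39) and Lhx2 (-0.33), and Lef1 was higher (0.72, adjusted p = 0.00837). Neurod1 had a log2 difference of -0.21 (p = 0.22). Of 10 desmosome genes, Dsp included, only Perp was called in older rats as a whole (lower by -0.41, p = 0.0274), where 32.4% of all genes were. Jup, a partner of Dsp, had a log2 difference of -0.01 (p = 0.881). In AV against YNG 3 of the 10 were higher (Vim, Des and Pkp4, with adjusted p = 0.0171, 0.192 and 0.212) and 1 was lower (Ppl, adjusted p = 0.212). Of all genes 21.3% were called in that comparison. None of the 5 polo-like kinase genes, Plk5 included, was called in older rats as a whole, where 32.4% of all genes were. Plk2 had the smallest p there (log2 difference 0.27, p = 0.0578). Upper quartile scaling, trimmed mean of M values scaling and the series as a covariate each gave 1 higher. Array weights gave 2 higher, where 55.5% of all genes were called. Of 6 genes of tryptophan metabolism tested beside Tdo2, 3 were lower (Afmid, Kyat1 and Tph2, log2 differences of -0.33, -0.20 and -0.42) and none after adjustment. Of all genes 16.7% were lower. Kmo was listed at 0 in 6 rats. With upper quartile scaling 1 of the 6 was lower and 1 higher, and with the series as a covariate 2 were lower and 1 higher. The shares of all genes called with these settings and with trimmed mean of M values scaling are not given here.

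Markers of immature granule cells were followed as well, since new neurons lose these as they gain Calb1. Of 16 tested, 2 were lower and 2 higher in the older rats, where 16.7% and 15.7% of all genes were. Dcx, the doublecortin of young neurons, was lower by -0.34 (adjusted p = 0.0142) and Igfbpl1 by -1.07 (adjusted p = 0.00567), while Sox11 had a log2 difference of -0.32 (p = 0.108) and of -0.50 in AV alone (p = 0.0373). The 2 higher genes did not pass adjustment. In AV against YNG 3 of the 16 were higher and 3 lower, where 21.3% of all genes were called. Eomes, which marks dividing intermediate progenitors, was listed at 0 in 24 rats. In ADQ against AV, where 9.32% of all genes were called, Dcx was the only one of the 16 (162.1 against 134.4, p = 0.0153).

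Markers of other cell types show what else the dissected tissue held. The defining granule cell markers Trpc6 (mean 563.8) and Glis3 (156.1) were above 0 in every rat, and Lct was listed at 0 in 17 rats. Of the CA1 markers Wfs1 was the most abundant (mean 5631, from 597.1 to 23420), and Fibcd1 (1768) and Pou3f1 (470.9) were above 0 in every rat. Their summed value was 9531 ± 5094 in YNG, 11560 ± 9375 in AV, 7480 ± 3287 in ADQ and 13250 ± 12470 in AA. Of the CA1 markers 0 of 9 tested were called between older rats and YNG, where 32.4% of all genes were. The SDs of the summed CA1 markers were largest in AA and AV, the groups of the 4 rats that stood apart.

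Higher in older rats were 6 of 10 oligodendrocyte genes (most abundant Mbp), 4 of 9 endothelial genes (Cldn5) and 4 of 13 interneuron genes, with 0 lower in each, where 15.7% of all genes were higher. The oligodendrocyte count against YNG was 9 in AV, 2 in ADQ and 5 in AA, and in the same order the endothelial count was 7, 1 and 3 and the interneuron count 1, 3 and 6. In that order 21.3%, 28.1% and 26.6% of all genes were called, higher or lower. In ADQ 1 interneuron gene was lower. The oligodendrocyte and endothelial counts were largest in AV. That group holds rats 3989, 4571 and 3890, with oligodendrocyte sums of 2.44, 2.34 and 1.53 times the median. It also had the lowest mean Calb1, and a relation between these was not tested. Among the rats from 4031 alone 1 oligodendrocyte and 2 interneuron genes were higher, and of the endothelial genes 0 were higher and 1 lower. Few of all genes were called among those rats, 1256 of 15598 in a fit of both series. Without the 7 rats of high CA1 sum 6 oligodendrocyte, 3 endothelial and 4 interneuron genes were higher and 1 interneuron gene lower. In that fit 34.3% of all genes were called, higher or lower. Of 10 astrocyte genes (Gfap) 1 was higher and 3 lower, of 11 microglia genes (Csf1r) 1 was higher, and of 13 CA3 and mossy cell genes (Cpne4) 1 was higher. Of 12 general neuron genes (Slc17a7) 2 were higher and 3 lower, of 13 activity-regulated genes (Egr3) 2 were higher, of 8 thalamus genes (Ntng1) 3 were higher and of 6 choroid plexus genes (Enpp2) 1 was. Iyd was listed at 0 in 6 rats, Folr1 in 9 and Kl in 1, and the other defining markers of these lists were above 0 in every rat. In ADQ against AV 8 of 11 microglia genes, 6 of 9 endothelial genes and 5 of 10 oligodendrocyte genes were lower, where 9.32% of all genes were called, and none passed adjustment. The AV rat 3989 had the highest sum of all 3 lists, and without the 7 rats of high CA1 sum the counts were 6, 4 and 0. The share of all genes called between ADQ and AV without those rats is not given here. The part of these cells in the granule cell values was not tested.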

How the data were processed

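DG RNA was poly(A)-selected and sequenced on an Ion Torrent instrument, with 1 library from each of 44 rats. Per the submitters' processing notes, which name STAR 2.5.3a, Partek, DESeq2 and the rn6 build, the authors aligned and counted the reads, and they deposited a signal table of read counts divided by size factors (median ratio). The annotation and the counting model are not given in the sources used here. The treatment of the older rats was read from the authors' attributes table. Reads per library were estimated from the steps between low values and ran from 10166556 to 24328321. Values of genes with 1 row came out as whole reads, within 0.05 reads, for 79.15% to 84.23% of low values, so no count test was run, and depths are estimates.

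Rows were summed per gene identifier (24694 rows, 18347 identifiers), genes with a mean under 5 were left out, and log2(value + 1) of the 15598 others was fitted with limma 3.58.1 (R 4.3.3, eBayes with trend, 4 group means, two-sided). Fold changes on this scale understate the change of low genes. Single genes were also tested by permutation of the rats (100000 resamples, scipy 1.17.1, Python 3.11.15). Relations between genes used residuals from the group means, with 10 pairs since Tdo2 was not tested. The code was checked on simulated data.

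The members and the lists were chosen with earlier results of these data known. The genes named are the members, the defining and most abundant genes of each list, the 5 smallest p of older against YNG and the 2 smallest of each older comparison in the wider granule list, and the 3 genes most like each member. Other genes of the lists that were called, and rat 3988, were named after their values were seen. Alternatives were other pseudocounts, filters, scalings, row choices and weights, the rat-number series, the groups compared alone and each rat left out. Leaving out the rats that stood apart (4107, 3989, 3996 and 4571), leaving out the 7 rats with a CA1 sum over 2 times the median, and the ratios to Prox1 were added after seeing the data. Some results of the calcium-binding and interneuron lists are not reported here.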

Additional observations from a re-analysis of the deposited data

How the results depend on the processing

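No paired analysis was possible because the rat names are animal numbers and the groups share no replicate numbers. The count of the 5 granule cell genes called at an unadjusted p of 0.05 ranged, over fits that each left out 1 rat, from 1 to 2 in AV against YNG, from 2 to 4 in AA against YNG, from 1 to 3 in ADQ against YNG, from 2 to 4 in older rats against YNG, from 0 to 0 in AA against AV, from 0 to 1 in ADQ against AV and from 0 to 1 in AA against ADQ. With array weights it was 3 in AV, 5 in ADQ and 4 in all older rats against YNG. In that fit 55.5% of all genes were called in all older rats against YNG. With the groups compared alone it was 2 in AV and 4 in ADQ against YNG and 1 in ADQ against AV, and with the permutation test it was 2 in AV, 1 in AA and 4 in ADQ against YNG and 1 in ADQ against AV. A filter at a mean of 20, or the row of largest mean, gave 1 in ADQ against YNG. The rats up to 4011 alone gave 2 in AV against YNG and 1 in ADQ against AV, and the rats from 4031 alone gave 0 in AA, 0 in ADQ and 1 in all older rats against YNG. Without rats 4107 and 3989 it was 4 in AA and in all older rats against YNG, and without rat 3996 as well it was 2 in AV, 4 in all older rats against YNG and 1 in AA against AV. Without rat 4571 too it was 3 in AV, 4 in ADQ and 4 in all older rats against YNG and 1 in AA against AV. Without the 7 rats of high CA1 sum it was 3 in AV and 4 in all older rats against YNG and 1 in AA against AV. Rats 4107, 3989, 3996 and 4571 are older rats chosen for low granule cell genes and are also among the 7, so these settings move the same values by construction. Other shares of all genes called in the same settings are not set beside these counts, and nothing is read from the counts about granule cell genes. Of 10 pairs of genes, 8 passed with all rats, 3 without the 2 farthest rats, 3 without the 3 rats, 4 without the 4 and 2 without the 7, where the 4 include Prox1 and C1ql2 with its sign reversed. These counts are by Pearson r, and by Spearman rho 4 passed with all rats. The causes were not tested.

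The log2 differences against YNG or AV that changed direction were not called in either setting. Those of AA against ADQ are not listed here. Prox1 against YNG was 0.11 in AV, 0.14 in AA and 0.18 in all older rats with array weights, 0.06 and 0.09 in AA and all older rats without rats 4107 and 3989, 0.13 and 0.11 without rat 3996 as well, 0.05, 0.13 and 0.13 in AV, AA and all older rats without the 4 rats, 0.05, 0.15 and 0.14 without the 7, and 0.02 in all older rats with upper quartile scaling. C1ql2 was 0.01 in AV against YNG for the rats from 4031, 0.05 in ADQ against AV for the rats up to 4011, and in AA against AV 0.04 with array weights, 0.11 without the 3 rats, 0.06 without the 4 and 0.03 without the 7. Plk5 was -0.06 in AV against YNG for the rats up to 4011. Dsp was -0.07 in AA against YNG for the rats from 4031, and in AA against AV 0.05 without rats 4107 and 3989, 0.09 without the 3 rats, 0.02 without the 4 and 0.07 without the 7, and in ADQ against AV -0.05 without the 4 and -0.03 without the 7. The r of Prox1 and C1ql2 was -0.26, -0.39 and -0.39 without the 3, the 4 and the 7 rats, so that this pair passed with all rats and, in the opposite direction, without the 4, that of C1ql2 and Plk5 -0.15, -0.17 and -0.22, and that of Calb1 and Plk5 -0.11, -0.12 and -0.08. With 1 rat left out, Prox1 ran from -0.20 to 0.06 in AA and from -0.07 to 0.05 in all older rats against YNG, C1ql2 from -0.24 to 0.02 and Dsp from -0.15 to 0.08 in AA against AV, and Dsp from -0.01 to 0.10 in ADQ against AV. Of 2411 results under alternatives, most of them from fits that each left out 1 rat, 2174 were classed as unchanged. A difference or correlation so classed did not reverse and kept its side of the threshold. A count so classed had only to stay close to its first value. Depth limits Tdo2 alone among the 6 genes, and the estimated depths rest on the scaled values.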
